A study of Mus musculus with 14 samples.

Results

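The 8 genes described here act in the small RNA pathways of the germ line: Dicer1, Ago2, Piwil2, Mov10l1, Ddx4, Mael, Gtsf1 and Gtsf1l. They were chosen by symbol from the deposited count tables of mouse oocytes, and all 8 were among the 16196 genes listed in both tables. The series compared oocytes that lack Mff, the outer-membrane receptor that recruits the fission GTPase Drp1 to mitochondria and peroxisomes, with oocytes that have it. WT oocytes were Mff fl/fl without Cre, and CKO oocytes were Mff fl/fl with Gdf9-Cre. Both groups therefore carry the floxed alleles, and the Cre driver, which is active in oocytes, separates them. Oocytes were taken at the germinal vesicle (GV) stage, arrested in the first meiotic prophase, with 4 WT and 4 CKO libraries, and after ovulation, with 3 WT and 3 CKO libraries. Ages of the mice, hormone treatment, and the oocytes and animals that went into a library were not given in the sources used here. P-values therefore reflect only how far these libraries spread.

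Small RNAs of 3 classes are known in mouse oocytes. MicroRNAs are cut from hairpins, endogenous siRNAs are cut by Dicer from long double-stranded RNA and guide cleavage by Ago2, and piRNAs are made without Dicer and are bound by PIWI proteins in perinuclear germ granules. In the mouse oocyte the siRNA branch is essential, microRNA activity is weak, and loss of the piRNA factors causes sterility in males while females stay fertile. Transcripts stored in the growing oocyte are translated or degraded as meiosis resumes, with no new transcription until after fertilisation.

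Each library held 26575600 to 28847400 counts, and the members had between 0 and 19819 counts in a library. Levels are given as CPM, counts scaled to the library total, after TMM normalisation over all 14 libraries. They are relative to the library total multiplied by its TMM factor, which ran from 0.697 (GV WT 1) to 1.47 (ovulated CKO 2). Fewer molecules per oocyte and a smaller share of a changed total therefore cannot be told apart. Lengths of poly(A) tails were not measured, so a change in how well a transcript entered the cDNA cannot be told apart either. Fold changes are log2 with a standard error (SE) from edgeR's quasi-likelihood test, and a gene was called at an adjusted p under 0.05 over all genes tested. Mff itself was 477 to 945 CPM in GV WT and 30.1 to 47.2 CPM in GV CKO, and 304 to 688 against 31.3 to 54.4 CPM in ovulated oocytes, so the libraries matched their labels. Marker sums are CPM of each library's plain total, without TMM factors. All 12 oocyte markers were present, with summed levels of 14704 to 31896 CPM. The granulosa and cumulus markers in the tables (16 of 18 at the GV stage, 12 of 18 after ovulation) summed to 43.1 to 112 CPM. The blood, immune and stromal markers (14 of 14 and 11 of 14) summed to 24.9 to 141 CPM. Most of these lower sums came from Cyp19a1 and Pecam1. In the GV WT libraries Ptx3 and Ptprc were at 0. The libraries GV WT 2, CKO 1 and CKO 2 stood apart, with 35.2% to 42.4% of counts in the 100 most abundant genes against 48.2% to 51.1% in the other GV libraries. Ovulated WT 3 and CKO 2 lay farthest out for their genotype on the first principal component.

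The stage comparison moved with transcript length over all genes, and the members differ widely in length. Dividing count by FPKM gives an implied length of 529 bases for Gtsf1, 648 for Gtsf1l, 1315 for Mael, 2635 for Ddx4, 3847 for Mov10l1, 4713 for Piwil2, 7801 for Ago2 and 9361 for Dicer1. From GV to ovulated in WT, 61.2% of the 1619 tested genes under 1000 bases were called lower and 14.1% higher, whereas of the 3288 genes over 4000 bases 15% were called lower and 50.4% higher. Between ovulated CKO and WT, 24.8% of the 1401 tested genes under 1000 bases were called higher, against 1.4% of the 3133 over 4000 bases. How much of a member's change belongs to its own transcript and how much to its length was not separated beyond 1 alternative fit, which removes the length trend of each library and is given beside the results it alters.

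Mael and Gtsf1 were the members that differed between ovulated CKO and WT, and both were far lower after ovulation than at the GV stage. Their promoters are shown as a description. Whether promoter motifs bear on these differences was not tested. The sequences are the 250 bases before the start site in RefSeq on GRCm38.p6, the assembly that mm10 names, 5′ to 3′ on the gene's strand, with the E-box (CANNTG) in capitals, a motif bound by basic helix-loop-helix factors such as the oocyte factor FIGLA. The Mael promoter is chr1:166238745-166238994 on the minus strand and the Gtsf1 promoter is chr15:103430428-103430677 on the minus strand, where no E-box was found. The start site used for Gtsf1 lies inside the gene coordinates given below, which end at chr15:103430445, so its stretch overlaps them. The Mael stretch lies just outside the Mael coordinates.
Mael: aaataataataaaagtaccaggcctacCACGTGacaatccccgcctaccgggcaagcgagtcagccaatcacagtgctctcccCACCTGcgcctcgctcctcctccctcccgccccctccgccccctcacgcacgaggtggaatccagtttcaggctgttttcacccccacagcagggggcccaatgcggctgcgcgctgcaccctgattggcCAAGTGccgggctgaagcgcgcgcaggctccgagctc
Gtsf1: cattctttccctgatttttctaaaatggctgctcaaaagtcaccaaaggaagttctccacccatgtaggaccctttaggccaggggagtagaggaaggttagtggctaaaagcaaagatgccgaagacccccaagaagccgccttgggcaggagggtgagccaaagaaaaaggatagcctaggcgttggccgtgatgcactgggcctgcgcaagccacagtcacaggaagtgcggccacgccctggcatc
Mael has 3 E-boxes, 1 of them CACGTG, 3 CCAAT boxes (CCAAT or ATTGG on the given strand, which covers both strands) and 18 CG dinucleotides, and Gtsf1 has 0 E-boxes, 0 CCAAT boxes and 7 CG dinucleotides. Over the promoters of 27025 genes, 66% held an E-box, 34.5% a CCAAT box and 6.05% CACGTG, with a median of 6 CG dinucleotides. Among the other members with an entry, Mov10l1 has 2 E-boxes, Ddx4 has 1, and Dicer1 and Gtsf1l have 0; CACGTG is also found in Mov10l1 and Ddx4. Dicer1 has 39 CG dinucleotides, Ddx4 31, Mov10l1 19 and Gtsf1l 1. Promoters of Ago2 and Piwil2 were not analysed here.

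The 3′ ends were searched because maternal transcripts are selected for translation and tail lengthening through cytoplasmic polyadenylation elements close to the polyadenylation signal. The motifs TTTTAT and TTTTAAT were sought on the transcript strand in the last 100 bases of the GENCODE transcripts of the members; a given start can match only 1 of them. Sites of 30 bases from the transcripts with a match near the signal are printed 5′ to 3′ with the element in capitals, for Dicer1 at chr12:104687762-104687791 on the minus strand and for Ddx4 at chr13:112598371-112598400 on the minus strand (GRCm38).
Dicer1: ttttctttttctTTTTAATaattgtagtca
Ddx4: acaaatgtttgcTTTTATaatatacagatt
In Dicer1 the element starts 38 bases from the transcript's end and the signal (AATAAA or ATTAAA) 21 bases from it, and in Ddx4 they start 56 and 29 bases from the end. The third match was in Ago2, 100 bases from the end of a transcript of 13800 bases. That site, chr15:73095914-73095943, lies outside the Ago2 coordinates given below, and the counts imply a length of 7801 bases. None of the transcripts of Piwil2, Mov10l1, Mael, Gtsf1 or Gtsf1l held either motif in this window, including all 6 transcripts of Gtsf1. In 0 of these 6, and in 1 of the 2 Mael transcripts, the window held a polyadenylation signal. Over 1 transcript each of 12759 tested genes, 19.3% held one of the motifs and 80.1% a polyadenylation signal. Which 3′ ends the oocytes use was not measured.

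Dicer1 (gene ID 192119, chr12:104687740-104751968), the RNase III enzyme that cuts microRNA precursors and long double-stranded RNA, was abundant at both stages. In GV WT it stood at 185, 239, 179 and 124 CPM, and in GV CKO at 211, 324, 164 and 143 CPM. In ovulated WT it was 325, 430 and 334 CPM and in ovulated CKO 342.7, 249.2 and 357.3 CPM. The ovulated WT libraries all lay above the GV WT libraries, and ovulated CKO 2 lay below GV CKO 2. Dicer1 was the 1 member called higher in WT after ovulation, by 1.00 (SE 0.29, adjusted p = 0.00554), a 2.00-fold difference; with the length trend removed the difference was 0.13 (adjusted p = 0.642). In CKO the difference between stages was 0.59 (SE 0.29, adjusted p = 0.094), and it passed the threshold in 8 of 21 alternatives: with median-of-ratios size factors (0.70), without the filter on low counts (0.73, adjusted p = 0.0474), with DESeq2 (0.70, adjusted p = 0.0421), with a replicate block (0.65, adjusted p = 0.036), without ovulated WT 3 and CKO 2 together (0.82, adjusted p = 0.0327), without GV CKO 2 (0.87, adjusted p = 0.0148), without ovulated WT 3 (0.69, adjusted p = 0.0468) and without GV WT 2, CKO 1 and CKO 2 together (1.03, adjusted p = 0.00295); with the length trend removed it was -0.089. CKO and WT did not differ past the threshold at the GV stage (0.19, SE 0.27, adjusted p = 0.853) or after ovulation (-0.16, SE 0.24, adjusted p = 0.747).

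Among the GV libraries the highest 3 values of Dicer1, 211, 239 and 324 CPM, were those of WT 2, CKO 1 and CKO 2, and the other GV libraries held 124 to 185 CPM. Without these 3 libraries the genotype difference was -0.099. The implied length of Dicer1 also varied: it was 8798 to 9220 bases in 7 GV libraries, 9626 in GV CKO 1 and 9610 to 9647 in the ovulated libraries. After correction for the common shift it was 9092 bases at the GV stage and 9547 after ovulation, 5.00% longer, and 16.0% of 3440 genes shifted by more. The shift was not particular to Dicer1. Among the other members high enough for this comparison, Gtsf1 went from 517 to 543 bases, 5.02% longer, and Ddx4 changed by -0.79%. The libraries of the stages overlapped for each of these genes. Mouse oocytes are known for a shorter Dicer isoform that starts at a retrotransposon inside the gene; the deposited values are per gene, and isoforms were not analysed here.

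**Figure D1:**
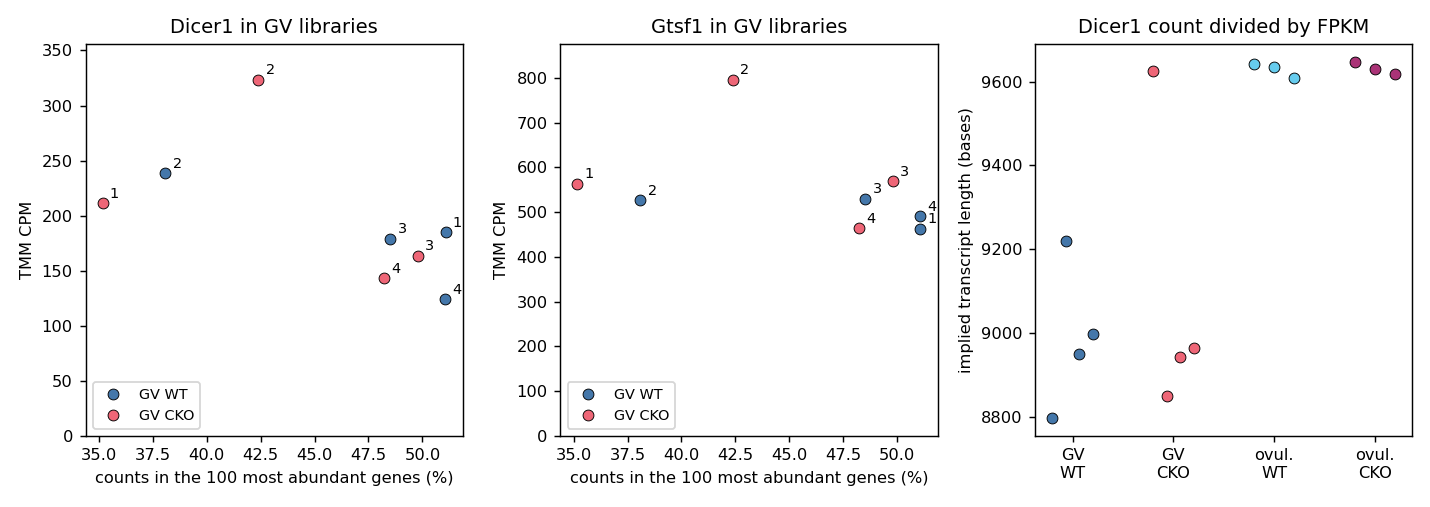
Dicer1 and Gtsf1 level (TMM CPM) in the 8 GV libraries against the percentage of counts in the 100 most abundant genes, with replicate numbers beside the points, and the implied Dicer1 transcript length in bases for every library by group. The 3 libraries under 45% on the horizontal axis hold the 3 highest Dicer1 values, GV CKO 2 holds the highest value of both genes, and 1 GV library has a Dicer1 length in the range of the ovulated libraries.

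Ago2 (gene ID 239528, chr15:73101625-73184947), the Argonaute with slicer activity that carries out siRNA-guided cleavage, was low and fell after ovulation in both genotypes. GV WT libraries held 12.7, 15.6, 17.0 and 13.5 CPM and GV CKO libraries 10.3, 12.9, 11.3 and 10.9 CPM. Ovulated WT libraries held 7.67, 6.55 and 6.09 CPM and ovulated CKO libraries 4.73, 6.27 and 3.36 CPM. All ovulated libraries lay below all GV libraries. From GV to ovulated Ago2 fell by 1.12 in WT (SE 0.27, adjusted p = 0.0015) and fell by 1.24 in CKO (SE 0.27, adjusted p = 0.00102). With the length trend removed the differences were -2.01 and -1.95, larger than before, whereas the increase of Dicer1, also a long transcript, was no longer called. CKO was lower than WT at the GV stage by 0.39 without passing the threshold (SE 0.19, adjusted p = 0.759). The GV groups did not overlap after normalisation of the GV table alone, as for 4.59% of the 12298 genes tested there, and overlapped by 1 library on the scale printed here. After ovulation the difference was -0.47 (SE 0.38, adjusted p = 0.502). An overlapping lncRNA gene, Gm31725, cannot be told apart from Ago2 if the counts ignored strand; the strand setting was not given in the sources used here.

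Piwil2 (gene ID 57746, chr14:70372477-70436898), the PIWI protein MILI that binds piRNAs and starts their amplification, had few counts in every library. GV WT libraries had 8, 43, 16 and 17 counts and GV CKO libraries 75, 14, 18 and 30 counts. Ovulated WT libraries had 23, 68 and 1 counts and ovulated CKO libraries 10, 18 and 52 counts. The groups overlapped in every comparison, and the spread within ovulated WT was wider than any difference between group means, which were 0.841 CPM in GV WT, 1.24 in GV CKO, 0.981 in ovulated WT and 0.768 in ovulated CKO. Piwil2 was not called in any comparison: the differences were 0.57 (SE 0.47, adjusted p = 0.783) for genotype at the GV stage, -0.30 (SE 0.98, adjusted p = 0.891) after ovulation, 0.21 (SE 0.80, adjusted p = 0.827) for stage in WT and -0.71 (SE 0.81, adjusted p = 0.476) in CKO. Differences of the size of these errors were not detectable with these few counts and this spread between libraries.

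Mov10l1 (gene ID 83456, chr15:88982891-89055152), the RNA helicase that feeds precursors into piRNA processing, was low in all groups. It stood at 3.63, 2.98, 4.20 and 3.67 CPM in GV WT and at 4.17, 2.74, 2.85 and 3.31 CPM in GV CKO. Ovulated WT libraries held 5.00, 3.71 and 2.81 CPM and ovulated CKO libraries 3.55, 2.72 and 1.17 CPM. All groups overlapped. None of the differences passed the threshold: -0.15 (SE 0.26, adjusted p = 0.884) for genotype at the GV stage, -0.60 (SE 0.48, adjusted p = 0.503) after ovulation, 0.09 (SE 0.36, adjusted p = 0.84) for stage in WT and -0.40 (SE 0.36, adjusted p = 0.368) in CKO.

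Ddx4 (gene ID 13206, chr13:112598333-112652633), the mouse Vasa helicase of germ granules, did not differ past the threshold in any comparison. GV WT libraries held 21.8, 27.6, 22.3 and 30.1 CPM and GV CKO libraries 24.7, 33.4, 35.1 and 42.9 CPM. Ovulated WT libraries held 31.0, 29.6 and 38.2 CPM and ovulated CKO libraries 38.5, 16.1 and 32.9 CPM. The groups overlapped throughout, and ovulated CKO 2 was the lowest library of all 14. Genotype differences were 0.40 at the GV stage (SE 0.22, adjusted p = 0.763) and -0.14 after ovulation (SE 0.32, adjusted p = 0.835), the latter being 0.29 without ovulated WT 3 and CKO 2. Stage differences were 0.37 in WT (SE 0.28, adjusted p = 0.256) and -0.22 in CKO (SE 0.29, adjusted p = 0.536); with the length trend removed the WT value was 0.73 (adjusted p = 0.0271).

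Mael (gene ID 98558, chr1:166201385-166238744), or maelstrom, a germ granule protein that silences transposons together with piRNAs, was lower after ovulation in both genotypes and, among ovulated oocytes, higher in CKO than in WT. In GV WT it was 72.2, 55.2, 68.6 and 67.6 CPM and in GV CKO 61.9, 82.2, 81.8 and 84.3 CPM. In ovulated WT it was 3.32, 5.36 and 7.55 CPM and in ovulated CKO 7.65, 24.6 and 16.4 CPM. The stages were far apart, and the lowest ovulated CKO library lay just above the highest ovulated WT library. Mael fell by 3.61 in WT (SE 0.38, adjusted p = 3.33e-07), a 12.2-fold difference, and fell by 2.26 in CKO (SE 0.35, adjusted p = 4.81e-05), a 4.78-fold difference. With the length trend removed these were -2.32 and -1.22, both past the threshold. Between ovulated CKO and WT, Mael was higher by 1.61 (SE 0.44, adjusted p = 0.0346), a 3.06-fold difference, and with the length trend removed by 1.44. That call depended on single libraries: it was lost without ovulated WT 1 (1.36, adjusted p = 0.128), WT 2 (1.58, adjusted p = 0.0927), CKO 2 (1.19, adjusted p = 0.201) or CKO 3 (1.61, adjusted p = 0.0582), and on FPKM with limma (1.53, adjusted p = 0.0616). At the GV stage the difference was 0.21 (SE 0.18, adjusted p = 0.787).

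Gtsf1 (gene ID 74174, chr15:103402458-103430445), a small zinc finger protein that partners PIWI proteins and is needed for them to cleave their targets, was the most abundant member at the GV stage and had the largest difference between stages in both genotypes. It stood at 462, 527, 529 and 490 CPM in GV WT and at 563, 796, 569 and 464 CPM in GV CKO. After ovulation it was 21.3, 19.6 and 22.4 CPM in WT and 42.4, 79.8 and 58.5 CPM in CKO. The 3 ovulated WT libraries were close to one another, at 21.1 ± 1.40 CPM (SD, n = 3), and every ovulated CKO library lay above them, at 60.2 ± 18.8 CPM (SD, n = 3). Gtsf1 fell by 4.57 in WT (SE 0.30, adjusted p = 8.84e-09), a 23.8-fold difference that ranked 11 by p among 13199 genes, and fell by 3.31 in CKO (SE 0.28, adjusted p = 1.83e-07), a 9.93-fold difference. With the length trend removed the differences were -2.70 in WT and -2.22 in CKO, both past the threshold. Per length, its mean level was 838 FPKM in GV WT, rank 129 of the 16196 genes in both tables, and 43.0 FPKM in ovulated WT, rank 1778.

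Between ovulated CKO and WT, Gtsf1 was higher by 1.54 (SE 0.29, adjusted p = 0.00418), a 2.92-fold difference. The call was kept without each ovulated library in turn, with values from 1.30 to 1.74, and without both WT 3 and CKO 2 (1.35, adjusted p = 0.0392). With the length trend removed the difference was 0.66 (adjusted p = 0.0881), and on FPKM with no filter on low values it was 1.68 (adjusted p = 0.0871). At the GV stage the genotype difference was 0.23 (SE 0.21, adjusted p = 0.796). The gene overlaps the lncRNA gene Gm52195, whose reads cannot be told apart if strand was ignored.

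Gtsf1l (gene ID 68236, chr2:163087031-163089601), a paralog of Gtsf1, was detected at a low level and fell as well. GV WT libraries had 21, 31, 23 and 13 counts and GV CKO libraries 48, 47, 17 and 24 counts. Ovulated WT libraries had 0, 4 and 7 counts and ovulated CKO libraries 2, 14 and 4 counts; the 0 of ovulated WT 1 allows up to 3 counts, by counting error alone. All GV libraries, at 0.662 to 1.98 CPM, lay above all ovulated libraries, at 0 to 0.355 CPM. Gtsf1l fell by 2.88 in WT (SE 0.79, adjusted p = 0.0036) and fell by 2.84 in CKO (SE 0.74, adjusted p = 0.00368), fitted values that rest on few counts. Without ovulated WT 3 the WT value was -3.79, without ovulated CKO 2 the CKO value was -3.84, and with the length trend removed the WT value was -1.17 (adjusted p = 0.159) and the CKO value -1.79 (adjusted p = 0.031). The GV genotype difference was 0.47 (SE 0.34, adjusted p = 0.764), and the filter on low counts left the gene out of the ovulated genotype comparison.

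**Figure D2:**
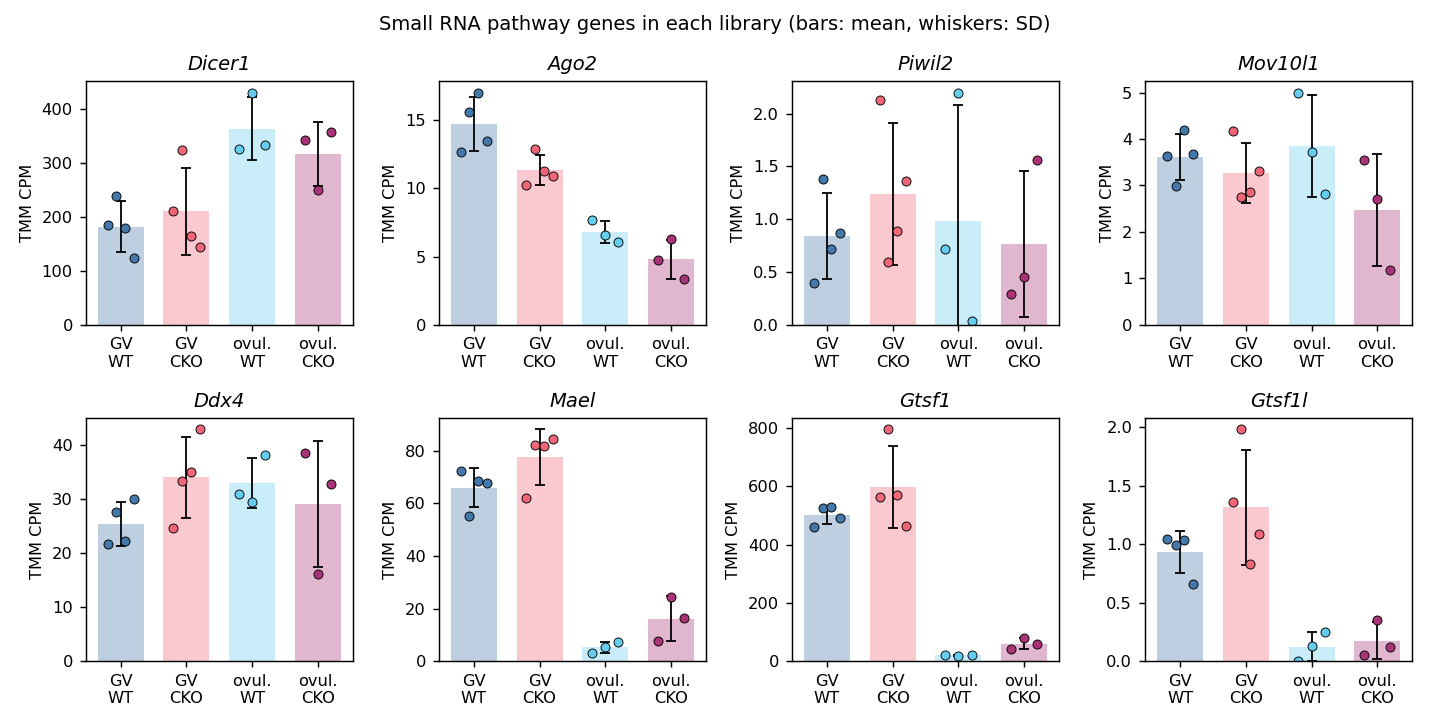
Level of each of the 8 genes (TMM CPM, axis from 0, scaled per gene) in the 14 libraries by group; points are libraries, bars the mean and whiskers the SD. Gtsf1, Mael, Gtsf1l and Ago2 are lower in the ovulated groups, and ovulated CKO lies above ovulated WT for Gtsf1 and Mael.

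Counted over the members, 0 of 8 were called between CKO and WT at the GV stage, where 0.0163% of 12298 genes were called (0.00813% higher and 0.00813% lower). None of the 8 had an unadjusted p under 0.05 there, and 6.66% of all genes did, so a count of 0 is near the background; DESeq2 called 0 members too. Among ovulated oocytes 2 of 7 tested members were called, Mael and Gtsf1, both higher in CKO, where 7.84% of 12010 genes were called, 6.44% higher and 1.4% lower; the groups did not overlap for these 2 members and for 28.5% of all genes. The median difference over the tested members was -0.16 and that over all genes -0.00. Without ovulated WT 3 and CKO 2 the count was 1, Gtsf1. From GV to ovulated in WT, 1 member was called higher and 4 lower, against 30.3% and 36.2% of 13199 genes, and the groups did not overlap for these 5 and for 68.7% of all genes. In CKO 0 were called higher and 4 lower, against 23.2% and 31.2%, and the 4 were Ago2, Mael, Gtsf1 and Gtsf1l as in WT; the groups did not overlap for 52.4% of all genes. The median stage difference was -0.52 in WT and -0.97 in CKO for the members, against -0.17 and -0.19 for all genes. In either direction 66.4% of all genes were called in WT and 54.4% in CKO, so the members' stage counts are near the background and are no result about them as a group.

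Whether the genotype difference itself changed between stages was tested as an interaction in the joint fit. The value was 1.26 for Gtsf1 (SE 0.35, adjusted p = 0.0597) and 1.35 for Mael (SE 0.47, adjusted p = 0.141). Neither passed the threshold, and 0 of the 8 members did, against 3.26% of all genes (3.17% higher and 0.0833% lower). These were the only 2 members with an unadjusted p under 0.05 in that test by edgeR, against 15.5% of all genes, and DESeq2 called 1 member, Gtsf1 (1.33, adjusted p = 0.00581). Gtsf1 was also called with median-of-ratios size factors (1.33, adjusted p = 0.039), without the filter on low counts (1.33, adjusted p = 0.0466), without GV CKO 2 (1.43, adjusted p = 0.0376) and without GV WT 2, CKO 1 and CKO 2 together (1.45, adjusted p = 0.0438). Leaving out ovulated CKO 1 gave calls for both Gtsf1 (1.46, adjusted p = 0.0154) and Mael (1.69, adjusted p = 0.015). With the length trend removed the Gtsf1 value was 0.49. The other 6 members had values from -0.92 (Piwil2) to 0.04 (Gtsf1l), with adjusted p of 0.512 or more. The stage comparison in WT and the genotype comparison after ovulation use the same 3 ovulated WT libraries, so a low value in those libraries enters both with opposite sign.

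**Figure D3:**
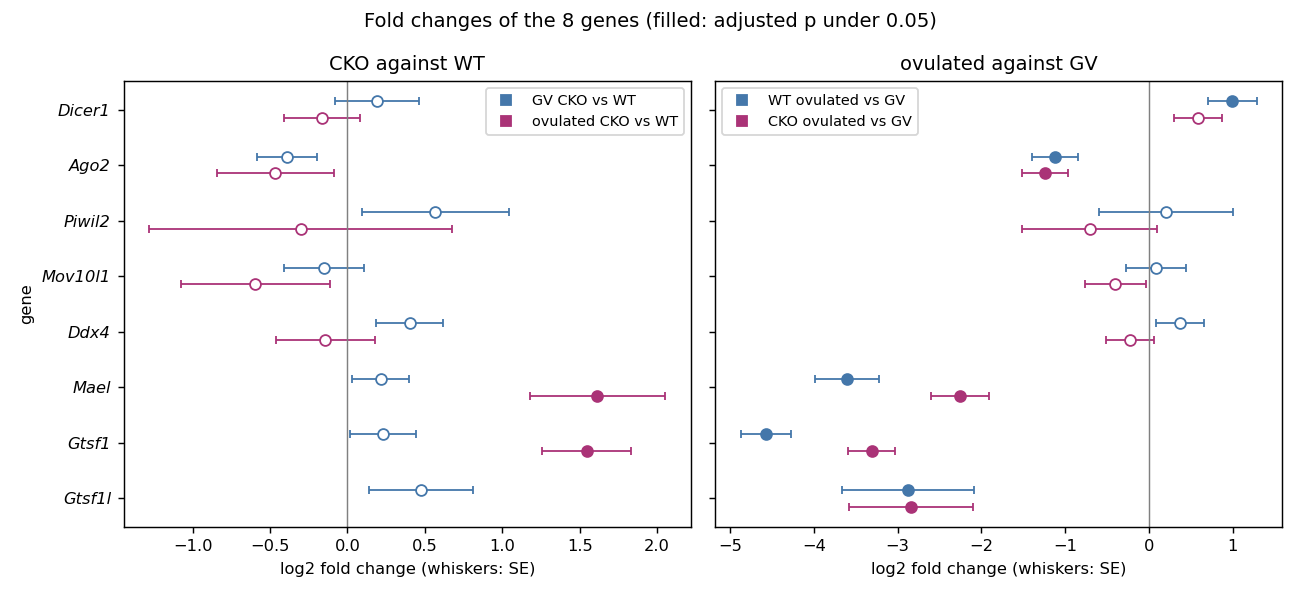
Log2 fold changes of the 8 genes with SE whiskers, for CKO against WT at each stage and for ovulated against GV in each genotype; filled symbols passed an adjusted p of 0.05. Mael and Gtsf1 are filled in the ovulated genotype comparison, and Gtsf1 has the lowest values in both stage comparisons.

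Levels between the genes were compared per length, as mean FPKM within a table. In GV WT the order was Gtsf1 (838), Mael (42.0), Dicer1 (17.8), Ddx4 (8.26), Ago2 (1.62), Gtsf1l (1.26), Mov10l1 (0.788) and Piwil2 (0.165). In ovulated WT it was Gtsf1 (43.0), Dicer1 (42.4), Ddx4 (13.9), Mael (4.51), Mov10l1 (1.12), Ago2 (0.977), Piwil2 (0.24) and Gtsf1l (0.207). Gtsf1 and Dicer1 overlapped in ovulated WT, at 39.7 to 45.0 and 36.5 to 50.8 FPKM, while in ovulated CKO Gtsf1 averaged 149 and Dicer1 42.7 FPKM. Mael averaged 16.5 and Ddx4 14.2 FPKM in ovulated CKO, with overlapping libraries.

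The genes whose pattern over the 14 libraries was most alike were sought by the root mean square difference of centred log2 CPM, among about 6512 genes of at least 5 CPM; this is a description over libraries of 4 groups. Cdc27, a subunit of the anaphase-promoting complex, was nearest to Dicer1 at 0.128, against a median of 0.708 over all candidates, followed by Etl4 at 0.170. Pcyt1a, an enzyme of phosphatidylcholine synthesis, and Ppef1 were nearest to Ago2 at 0.151 and 0.185. Nlrc4 and Msl3 were nearest to Ddx4 at 0.208 and 0.211, and Fyb2 and Tmtc4 to Mov10l1 at 0.242 and 0.245. Snupn, an import adaptor of spliceosomal snRNPs, and Uck2 were nearest to Gtsf1 at 0.180 and 0.191, against a median of 2.19. Txnl4a, a spliceosome component, and Gng3 were nearest to Mael at 0.221 and 0.225, against a median of 1.76. Among the 6 members above 1 CPM, Ago2 and Mov10l1 were the closest pair at 0.550, followed by Mov10l1 and Ddx4 at 0.569 and Mael and Gtsf1 at 0.579, and Dicer1 and Gtsf1 were the most distant at 2.44. Piwil2 and Gtsf1l were too low for such a search.

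A list of 56 other small RNA pathway genes, all present in the tables, sets the members in their pathways. At the GV stage 0 of 51 tested genes were called between CKO and WT, where 0.0163% of all genes were called. After ovulation 4 of 53 were higher in CKO and 2 lower, against 6.44% higher and 1.4% lower over all genes. Tdrd7, a Tudor protein of germ granules, was higher by 2.26 (adjusted p = 0.00657): 1.34, 1.61 and 0.748 CPM in WT against 4.55, 6.96 and 5.74 CPM in CKO. Tarbp2, the double-stranded RNA-binding partner of Dicer, was higher by 2.46 (adjusted p = 0.00975): 1.34, 2.39 and 1.64 CPM in WT against 3.58, 17.5 and 7.72 CPM in CKO. Tdrd1, a Tudor protein that binds PIWI proteins, was higher by 1.13 (adjusted p = 0.0236), and Drosha, the nuclease that releases microRNA hairpins in the nucleus, by 1.55 (adjusted p = 0.0285). The lower genes were Ddx39a, an RNA helicase listed in the tables as Ddx39, at -1.07 (adjusted p = 0.037), and Nanos2, an RNA-binding regulator of male germ cells, at -0.92 (adjusted p = 0.0458). These calls were not stable: leaving out 1 ovulated library gave between 1 and 8, with 2 without WT 1, 3 without WT 2, 1 without WT 3 and 1 without CKO 2, and leaving out both WT 3 and CKO 2 gave 0.

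From GV to ovulated, 16 of the 55 tested pathway genes rose and 23 fell in WT, and 12 rose and 18 fell in CKO. Over all genes, 30.3% were called higher and 36.2% lower in WT, and 23.2% and 31.2% in CKO, so the counts over the 55 genes are near the background; with the length trend removed they were 18 higher and 21 lower in WT and 14 and 19 in CKO. The piRNA list had 6 higher and 15 lower of 25 in WT, with a median of -1.32, and 4 higher and 12 lower in CKO, with a median of -0.79, beside medians of -0.17 and -0.19 over all genes. Removal of the length trend gave 8 higher and 14 lower in WT, with a median of -1.04 beside 0.14 over all genes, and 6 higher and 13 lower in CKO, with a median of -0.56 beside 0.087. Henmt1, which methylates the 3′ ends of piRNAs, was at -3.76 in WT and -2.35 in CKO. Fkbp6, a cochaperone of piRNA loading, was at -2.73 in WT and -2.50 in CKO, and Tdrd12 at -2.16 and -2.38. Exd1 was at -2.14 in WT and -2.03 in CKO, and Tdrkh at -1.99 and -1.60. Piwil1, the PIWI protein MIWI, rose by 2.32 in WT and 2.38 in CKO, and Gtsf2, a further Gtsf1 paralog, by 2.25 and 1.96; Gtsf1 and Gtsf1l fell. The list of Argonautes and effectors had 5 higher and 2 lower of 12 in WT and 4 higher and 2 lower in CKO, with medians of 0.68 and 0.39, which with the length trend removed were 0.41 and 0.11. The shares over all genes given above are the background for these counts too. Tnrc6a, the scaffold that links Argonautes to deadenylases, rose by 2.44 in WT and 1.95 in CKO.

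The list of microRNA processing had 5 higher and 4 lower of 13 in WT and 4 higher and 2 lower in CKO, near the shares over all genes given above. Lin28a and Lin28b, which block let-7 maturation, rose by 2.53 and 2.37 in WT and by 2.07 and 2.19 in CKO. Zcchc6, the uridylyltransferase listed in the tables as Tut7, rose by 2.24 and 1.99. Tarbp2 fell by 5.51 in WT, where its level was 81.5 ± 24.0 CPM (SD, n = 4) at the GV stage and 1.79 ± 0.542 CPM (SD, n = 3) after ovulation, and it fell by 2.76 in CKO. Xpo5, which exports microRNA precursors, was at -2.50 in WT and -1.60 in CKO. Tarbp2 was the 1 pathway gene of 55 called for the interaction, at 2.74 (SE 0.58, adjusted p = 0.0168), against 3.26% of all genes. Of the pathway genes, 0 were called without ovulated WT 3 and CKO 2 or without GV WT 2, CKO 1 and CKO 2.

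The last list holds 5 genes whose transcripts match oocyte endogenous siRNAs, in some cases made from pseudogenes. Transcripts matched in this way are known to be raised in oocytes that lack Dicer or Ago2. None of the 5 was called between CKO and WT at either stage. Over all genes 0.0163% were called at the GV stage and 7.84% after ovulation, so a count of 0 is near the background. After ovulation the differences were -1.07 for Ppp4r1, -0.27 for Hdac1, 0.11 for Kif4, 0.37 for Rangap1 and 0.66 for Pdzd11, with a median of 0.11. The adjusted p was 0.102 or more for each. From GV to ovulated Pdzd11 was at -3.05 in WT and -2.32 in CKO, Hdac1 at -2.07 and -2.01, all called, and 0 of the 5 were called higher. Over all genes 30.3% were called higher and 36.2% lower in WT, and 23.2% and 31.2% in CKO. Counts of the 5 genes are uncertain because reads can be shared with a pseudogene or with an overlapping gene, and the strand setting was not given.

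**Figure D4:**
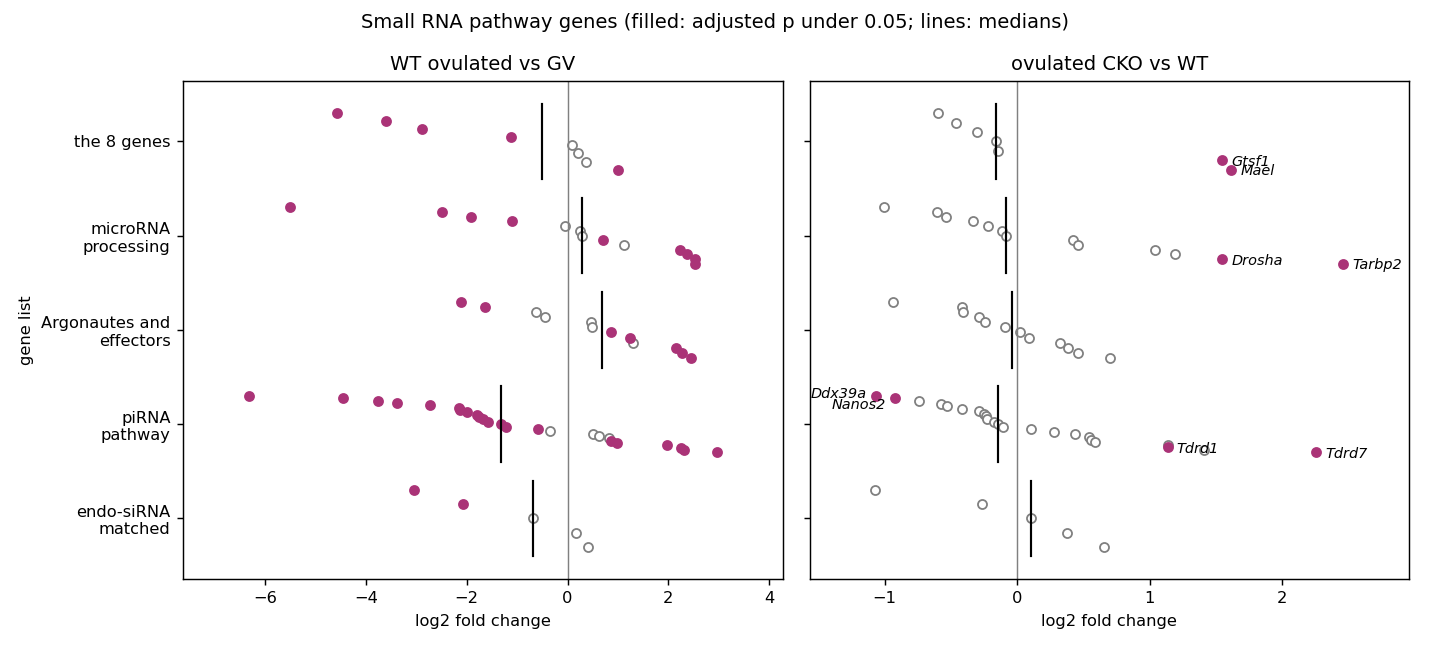
Log2 fold change of the 8 genes and of the other small RNA pathway genes by list, for ovulated against GV in WT and for CKO against WT after ovulation; each point is a gene, filled points passed an adjusted p of 0.05, and lines mark the medians. The piRNA list has a median of -1.32 in the WT stage comparison, and 6 genes of the lists pass in the ovulated genotype comparison beside Gtsf1 and Mael.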

How the data were processed

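Per the file headers, the authors' values are estimated counts and FPKM, each in 1 table per stage; 17.6% of GV and 18.3% of ovulated counts above 0 were not whole (tolerance 0.001). First-strand cDNA was made by SMART-SeqII and preamplified by PCR, per the labels' protocols, and mm10 was the build, per the submitters' processing notes; the aligner, counter and strand setting were not given in the sources used here. PCR copies are not independent molecules, so count limits cover counting error only.

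Counts were rounded and tested with edgeR 4.0.16 in R 4.3.3 (filterByExpr, TMM, robust quasi-likelihood F test, Benjamini-Hochberg adjustment over all genes tested). Genotypes were compared within each stage's table; stages and the interaction were fitted jointly over the genes in both tables, so stage cannot be told apart from anything else that differs between the tables. Alternatives were median-of-ratios size factors, no filter, DESeq2 1.42.0, a replicate block, removal of each library's length trend, limma 3.58.1 on log2(FPKM + 1) and log2(FPKM + 0.1), and omission of libraries. The fits were also run on simulated counts drawn without a length trend between libraries. That run cannot show how the fits handle such a trend. All 8 members are named in every comparison; of the 56 other pathway genes, at most 6 called per direction by p, and 2 genes most alike per member. The 5 genes matched by endogenous siRNAs are named in full outside this rule, a choice made after their values were seen. Members and lists were chosen with earlier results of these data known. Promoters came from RefSeq (6 of 8 members matched) and 3′ ends from GENCODE.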

Additional observations from a re-analysis of the deposited data

Results flagged for a closer look

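In GV CKO, replicate 1 had the lowest Mael level, 61.9 CPM, with the other 3 libraries at 81.8 to 84.3 CPM. In GV WT, replicate 4 had the lowest Gtsf1l level, 0.662 CPM, with the others at 0.994 to 1.05 CPM, a distance that rests on 13 against 21 to 31 counts. These libraries lay far from the rest of their group by Dixon's ratio; 16 groups of 4 libraries were examined, and chance flags about 1 in 20. The effect of genotype on Tarbp2 differed between the stages, with an interaction of 2.74 on the log2 scale (edgeR, adjusted p = 0.0168). That call was lost without ovulated WT 3 and CKO 2, and without GV WT 2, CKO 1 and CKO 2. Over all genes 3.26% were called for the interaction.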

How the results depend on the processing

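Calls among the members: between ovulated CKO and WT the count of 2 became 1 with the length trend removed, with either FPKM pseudocount and without ovulated WT 3 and CKO 2, and 0 on FPKM with no filter; leaving out 1 library gave 1 to 2. For the interaction the count of 0 became 1 with median-of-ratios size factors, no filter or DESeq2, or without GV WT 2, CKO 1 and CKO 2 (0 to 2 leaving out 1). The count of 4 in CKO between stages ranged from 4 to 5. In WT the count of 5 was 5 without each library and 4 with the length trend removed. In that edgeR fit Dicer1 (adjusted p = 0.642) and Gtsf1l (adjusted p = 0.159) were no longer called, and Ddx4 (adjusted p = 0.0271) was.

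Calls over all genes: at the GV stage 2 became 4 with no filter or the length trend removed, 56 with DESeq2, 1 on FPKM with no filter and 63 without the 3 GV libraries (2 to 5 leaving out 1). After ovulation 942 became 1593 with DESeq2, 1 on FPKM with no filter and 235 without WT 3 and CKO 2 (341 to 1652 leaving out 1); the share higher, 82.2%, was 71.3% with DESeq2, 66.9% with the length trend removed and 93.9% to 94.2% on FPKM. For the interaction 430 became 889 with DESeq2, 229 without the 3 GV libraries and 157 without the 2 ovulated ones (129 to 1006 leaving out 1). Between stages, with the length trend removed, 54.1% and 53.6% of calls in WT and CKO were higher, against 45.5% and 42.6%, and the median of all genes moved from -0.17 to 0.14 and from -0.19 to 0.09.

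Directions turned for members that were not called. With the length trend removed, the stage differences were -0.40 for Piwil2 and -0.21 for Mov10l1 in WT and -0.089 for Dicer1 and 0.084 for Ddx4 in CKO, and the interaction was 0.064 for Ago2 and -0.62 for Gtsf1l. On FPKM, Mov10l1 was 0.0037 at the GV stage and Dicer1 0.020 after ovulation. Without the 3 GV libraries, Dicer1 was -0.099 at the GV stage and Mov10l1 -0.010 between stages in WT; without the 2 ovulated libraries, Ddx4 was 0.29 after ovulation and 0.15 between stages in CKO. Leaving out 1 library gave ranges across 0 for Dicer1 (-0.042 to 0.36, GV), Piwil2 (-1.33 to 1.03, ovulated; -1.16 to 0.77, WT stages; -1.94 to 0.44, interaction), Ddx4 (-0.40 to 0.16, ovulated; -0.48 to 0.066, CKO stages), Mov10l1 (-0.15 to 0.27, WT stages), Ago2 (-0.36 to 0.080, interaction) and Gtsf1l (-0.95 to 1.06, interaction). The cause was not tested.

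Replicate numbers are shared between genotypes. Deviations of same-numbered WT and CKO libraries had correlations of -0.32 to 0.42 at the GV stage and 0.02 to 0.19 after ovulation. Libraries with different numbers had -0.52 to 0.55 and -0.16 to 0.08. Whether same-numbered libraries share a source of variation was not tested. With the replicate block in edgeR, 1630 genes were called after ovulation, 65.5% of them higher, against 942 without it. For the interaction 262 were called, against 430. Mael and Gtsf1 stayed called between ovulated CKO and WT, with adjusted p of 0.00255 and 0.000141. Dicer1 in CKO between stages was called (0.65, adjusted p = 0.036). Fits on FPKM were not run between stages, since the tables were normalised separately.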
